A study of Mus musculus with 46 samples.

Results

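The aminoacyl-tRNA synthetases are the enzymes that load each tRNA with its amino acid, and 37 of the 10453 gene symbols in the deposited tables encode them. The members were chosen by gene symbol, with no measured value used. Of these genes, 20 encode cytosolic synthetases and 17 encode mitochondrial synthetases, whose symbols end in 2. All 37 were listed in the DMSO tables and 36 in the torin 1 tables, where Ears2, the mitochondrial glutamyl-tRNA synthetase, was not listed. Every listed member passed the filter of at least 10 counts per library on average in every comparison it entered.

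Ribosome footprints, the mRNA fragments that ribosomes protect from RNase, and poly(A) RNA of the same cultures were sequenced from murine EPP2 pancreatic cancer cells. Ctu1 iKO cells carried a doxycycline-inducible Cas9 and a pair of guide RNAs against Ctu1, an enzyme that thiolates the wobble uridine of the tRNAs for lysine, glutamine and glutamate, and were a selected population of cells given 300 ng/ml doxycycline for 4 days. Control cells were labelled wild type, and per the study's methods controls carried guides to non-coding sequence or received no doxycycline, without saying which applies to these libraries. If the controls received no doxycycline, effects of doxycycline and of Cas9 cannot be told apart from those of Ctu1 loss. Cultures received DMSO or 300 nM torin 1, an ATP-competitive mTOR inhibitor, for 2 h, which gave 6 control cultures with DMSO, 6 control cultures with torin 1, 5 Ctu1 iKO cultures with DMSO and 6 Ctu1 iKO cultures with torin 1. The labels number the replicates and do not say which cultures shared a day, so the p-values measure the spread between these cultures only. The methods and the figure legends of the study differ on how many of the cultures were biologically independent experiments. Where cultures of a group were not independent, the p-values would be too small.

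Footprint libraries held 4602092 to 52907878 counts and RNA-seq libraries 129881946 to 325494304. Each library was placed on the axis from DMSO to torin 1 set by replicates 1 and 2 of its genotype and assay. The side of those replicates was thereby largely fixed in advance. On this axis, 6 RNA-seq libraries lay on the side opposite to their treatment label. These were control with torin 1 replicates 5 and 6, Ctu1 iKO with DMSO replicates 4 and 5, and Ctu1 iKO with torin 1 replicates 5 and 6, while no footprint library did so. RNA-seq and translational efficiency values are those of replicates 1 to 3, and values with all replicates as labelled stand beside them where a call differed. Levels are in CPM, counts scaled to 1000000 per library after TMM normalization. With DMSO, footprints of Ctu1 itself stood at 2.67 ± 0.742 CPM in the 6 control cultures (mean ± SD) and at 1.82 ± 0.421 CPM in the 5 Ctu1 iKO cultures (p = 0.0433 by an exact, two-sided permutation of the mean difference). The fit across all genes gave it a log2 change of -0.54 ± 0.29 there and did not call it (edgeR adjusted p = 0.353). Its RNA-seq level did not separate the genotypes (4.56 ± 0.321 against 4.55 ± 0.085 CPM, n = 3 each, exact permutation p = 1), and reads of an edited gene are still counted in either assay. In these bulk libraries, fewer cells of a type and less RNA per cell cannot be told apart.

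Of the cell type markers, 5 of 8 epithelial, 5 of 6 mesenchymal and 1 of 4 immune genes were listed, led in RNA of control cultures with DMSO by Krt8 (136 CPM), Vim (2428 CPM) and Cd68 (1.67 CPM), and no acinar, endocrine or endothelial marker was listed. In footprints, Krt8 rose in Ctu1 iKO with DMSO (log2 change 0.36 ± 0.08, edgeR adjusted p = 0.0352). With torin 1, Sox9 rose and Vim fell in control (0.83 ± 0.14 and -0.48 ± 0.10), and in Ctu1 iKO Sox9 and Pdgfrb rose while Vim and Krt18 fell (1.01 ± 0.19, 0.85 ± 0.24, -0.93 ± 0.11 and -0.52 ± 0.11). Sox9 was also higher in Ctu1 iKO than in control with torin 1 (0.61 ± 0.14). In RNA-seq, Acta2 and Dcn rose in Ctu1 iKO with DMSO (2.21 ± 0.30 and 1.36 ± 0.21), Krt18, Sox9 and Vim rose with torin 1 in both genotypes and Krt8 in Ctu1 iKO, and Vim was higher in Ctu1 iKO with torin 1 (0.72 ± 0.10). Summed over the 4 epithelial genes in both tables, footprints stood at 331 to 403 CPM in control with DMSO, 308 to 410 with torin 1, 365 to 501 in Ctu1 iKO with DMSO and 395 to 499 with torin 1. The 4 mesenchymal genes stood at 3757 to 5004, 2827 to 3604, 3721 to 5394 and 2079 to 3284 CPM in the same order. In RNA-seq both sums were highest in Ctu1 iKO with torin 1, the epithelial genes at 289 to 311, 378 to 435, 318 to 396 and 550.0 to 622 CPM and the mesenchymal genes at 2492 to 2753, 3193 to 3580, 3124 to 3447 and 5148 to 5791 CPM in that order. The part of these markers in the results that follow was not tested.

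Cytosolic synthetases charge the tRNAs read by cytosolic ribosomes, and 8 of them (Eprs, Iars, Lars, Mars1, Qars, Kars, Rars and Dars) are held with the scaffold proteins Aimp1, Aimp2 and Eef1e1 in the multi-synthetase complex. Mitochondrial synthetases are made in the cytosol from nuclear genes, imported, and charge the tRNAs for the few proteins that mitochondria translate. Gars and Kars each serve both compartments, and Qars charges cytosolic glutamine tRNA, while mitochondria make Gln-tRNA by an indirect route. Many cytosolic synthetase genes are known targets of ATF4, the transcription factor of the amino acid response, which binds composite elements of the form TGATGNAAN. The mTOR pathway is known to govern mRNAs that begin with a cytidine followed by pyrimidines, the TOP mRNAs, among them those of ribosomal proteins and elongation factors.

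The letters of this ATF4-type element are shown because they fall near the start sites of 5 cytosolic synthetases. RefSeq promoter windows on GRCm38.p6, from 250 bases before to 50 after an annotated start, were matched for 27 members (28 windows). TGATGNAAN on either strand was found in 5 of 13 cytosolic windows (38.5%), those of Aars, Gars, Iars, Tars and Yars, and in 0 of 15 mitochondrial windows. The share was 2.16% of 10696 windows of genes in the tables and 3.95% of 32851 windows in all. In the lines here the matched letters are in capitals, read 5′ to 3′ on the strand of the gene. A single match is shown per gene, and it lies on the opposite strand in all but Yars.
Aars, chr8:111033840-111033868, plus strand: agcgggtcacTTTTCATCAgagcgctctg
Gars, chr6:55037960-55037988, plus strand: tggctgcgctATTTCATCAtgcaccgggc
Iars, chr13:49682126-49682154, plus strand: cactgtcagtATTGCATCAcctccagacg
Tars, chr15:11399656-11399684, minus strand: caggagtcccGTTGCATCAgctggttagc
Yars, chr4:129189896-129189924, plus strand: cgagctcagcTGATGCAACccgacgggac

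A start with C and 4 pyrimidines was held by Wars2 alone among the 28 windows, against 2.32% of the windows of listed genes. Anywhere from 5 bases before to 10 after the start, the same 5 letters on the strand of the gene stood in 3 of 13 cytosolic (23.1%) and 4 of 15 mitochondrial windows (26.7%), beside 19.5% of the windows of listed genes and 18.3% in all. Qars was among the 3 cytosolic windows. In its line the stretch CTCCT runs from the last capitals into the letters that follow. The part of this stretch in the torin 1 changes was not tested. The starts of the 3 synthetases with the largest called footprint decreases with torin 1 in Ctu1 iKO and of Wars2 follow, with annotated bases 1 to 5 in capitals. Annotated starts need not be those used in these cells, and those of RefSeq and GENCODE differ for some members, Qars, Kars and Wars2 among them. Sars had no TGATGNAAN match and did not begin with C and 4 pyrimidines. The cytosolic members without a window were Cars, Hars, Lars, Nars, Rars, Vars and Wars.
Qars, chr9:108507995-108508019, plus strand: tcaaggcttcGTACTcctattggtc
Kars, chr8:112011340-112011364, minus strand: tttcccggaaGAGGCaggacttaga
Mars2, chr1:55237167-55237191, plus strand: taccgtccagCTGCGcacgcgccct
Wars2, chr3:99141080-99141104, plus strand: cggccccgccCTTCTcaagatggcg

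Cytosolic synthetases had far higher footprint density than mitochondrial ones. In control cultures with DMSO, the median footprint density, in CPM per kb of coding sequence, was 89.4 over 20 cytosolic genes and 7.71 over 17 mitochondrial genes, an 11.6-fold difference of medians. The asparaginyl-tRNA synthetase Nars led with 748 ± 80.9 (SD, n = 6), followed by the lysyl enzyme Kars at 282 ± 29.9, the glutaminyl enzyme Qars at 232 ± 11.9 and the seryl enzyme Sars at 210 ± 24.4. The classes met at Tars2, the mitochondrial threonyl enzyme, whose 41.7 ± 6.01 stood beside the lowest cytosolic member, the tyrosyl enzyme Yars, at 41.7. The mitochondrial alanyl enzyme Aars2 was lowest at 1.16 ± 0.366. In the order of means, the ranges over cultures did not overlap between Nars and Kars or between Sars and the isoleucyl enzyme Iars, and they overlapped in every other pair of neighbours. RNA-seq showed the same separation, with medians of 68.3 and 4.93 CPM per kb of transcript, a 13.8-fold difference. Together, the 20 cytosolic genes took 0.593 ± 0.0344% of footprint counts. The 16 mitochondrial genes also listed with torin 1, all but Ears2, took 0.0378 ± 0.00341%.

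**Figure D1:**
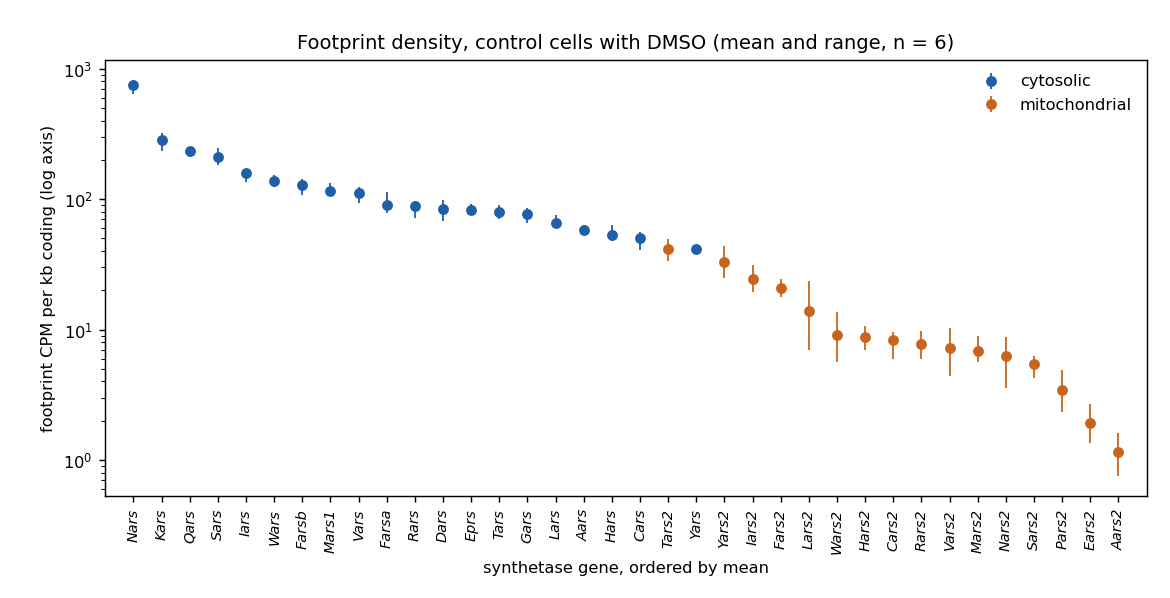
Footprint density of 36 of the 37 synthetases in the 6 control cultures with DMSO, in CPM per kb of coding sequence on a log axis, with the mean as a point and the lowest to highest culture as a line. All 20 cytosolic genes (blue) but Yars lie above the highest mitochondrial gene (orange), Tars2.

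With DMSO, Ctu1 iKO cultures had higher footprint counts than control cultures for a subset of cytosolic synthetases, and no called change in the mitochondrial class. In footprints, 6 of 20 cytosolic genes rose and none fell, where 1.63% of 10397 genes tested rose and 1.04% fell (2.66% in all; 169 higher and 108 lower, or 218 and 80 when libraries were scaled by their totals alone). The 6 were the threonyl, asparaginyl, seryl, alanyl, glycyl and tryptophanyl enzymes Tars, Nars, Sars, Aars, Gars and Wars, and each had no overlap between the 6 control and 5 Ctu1 iKO cultures. In edgeR all 6 stand outside the multi-synthetase complex and none of its 8 members was called. DESeq2 called 8 cytosolic genes, the same 6 with Cars and the complex member Lars, and whether members inside and outside the complex differ was not tested.

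Tars (chr15:11382301-11399665, minus strand) had footprint levels of 153 to 195 (median 169.8) CPM in control cultures and 234, 241, 221, 272 and 236 in Ctu1 iKO. Every Ctu1 iKO culture was above every control culture, a log2 change of 0.49 ± 0.09 (SE; edgeR adjusted p = 0.0109). Nars, the synthetase with the most footprints, had 1069.9 to 1383 (median 1309.8) CPM in control and 1963, 1769.8, 1590.2, 1837 and 1602 in Ctu1 iKO cultures, again with no overlap, a log2 change of 0.49 ± 0.09 (edgeR adjusted p = 0.0154). Sars (chr3:108424865-108445209, minus strand) had 280.4 to 377 (median 318) CPM in control and 475, 482, 399, 437 and 433 in Ctu1 iKO cultures, a log2 change of 0.46 ± 0.09 (edgeR adjusted p = 0.0185). Its lowest Ctu1 iKO culture stood above its highest control culture. The changes of Aars, Gars and Wars were 0.44 ± 0.07, 0.41 ± 0.09 and 0.35 ± 0.08 on the log2 scale. Aars shares 14.3% of its exon bases with Exosc6, an exosome subunit gene on the same strand.

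Of the remaining cytosolic members, the leucyl enzyme Lars had a log2 change of 0.37 ± 0.11 (edgeR adjusted p = 0.0814) and the cysteinyl enzyme Cars 0.32 ± 0.10 (adjusted p = 0.102), and neither passed in edgeR. Others lay near zero or below, such as Kars at 0.04 ± 0.09, the bifunctional glutamyl-prolyl enzyme Eprs at -0.12 ± 0.08 and the valyl enzyme Vars at -0.17 ± 0.09. The median log2 change was 0.09 over the 20 cytosolic genes, -0.03 over the 8 complex members, 0.33 over the 12 outside the complex and -0.00 over all genes tested. In the mitochondrial class, edgeR called 0 of 17 (3 at an unadjusted p under 0.05, and 0 by DESeq2), with a median of -0.03, or 0.01 with library totals. Changes there ran from -0.84 ± 0.31 for Ears2 (edgeR adjusted p = 0.161) to 0.53 ± 0.23 for the mitochondrial asparaginyl enzyme Nars2 (adjusted p = 0.252). The SEs of both exceed those of any called cytosolic member, at footprint levels of a few CPM. Gars was no longer called when control replicate 2, 3, 4, 5 or 6 or Ctu1 iKO replicate 3, 4 or 5 was left out (adjusted p up to 0.0763), and Wars when control replicate 1, 2, 3 or 4 or Ctu1 iKO replicate 2, 3, 4 or 5 was (up to 0.0843). Replicates 1 to 3 alone gave 0 called members, with 2 genes called in all.

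**Figure D2:**
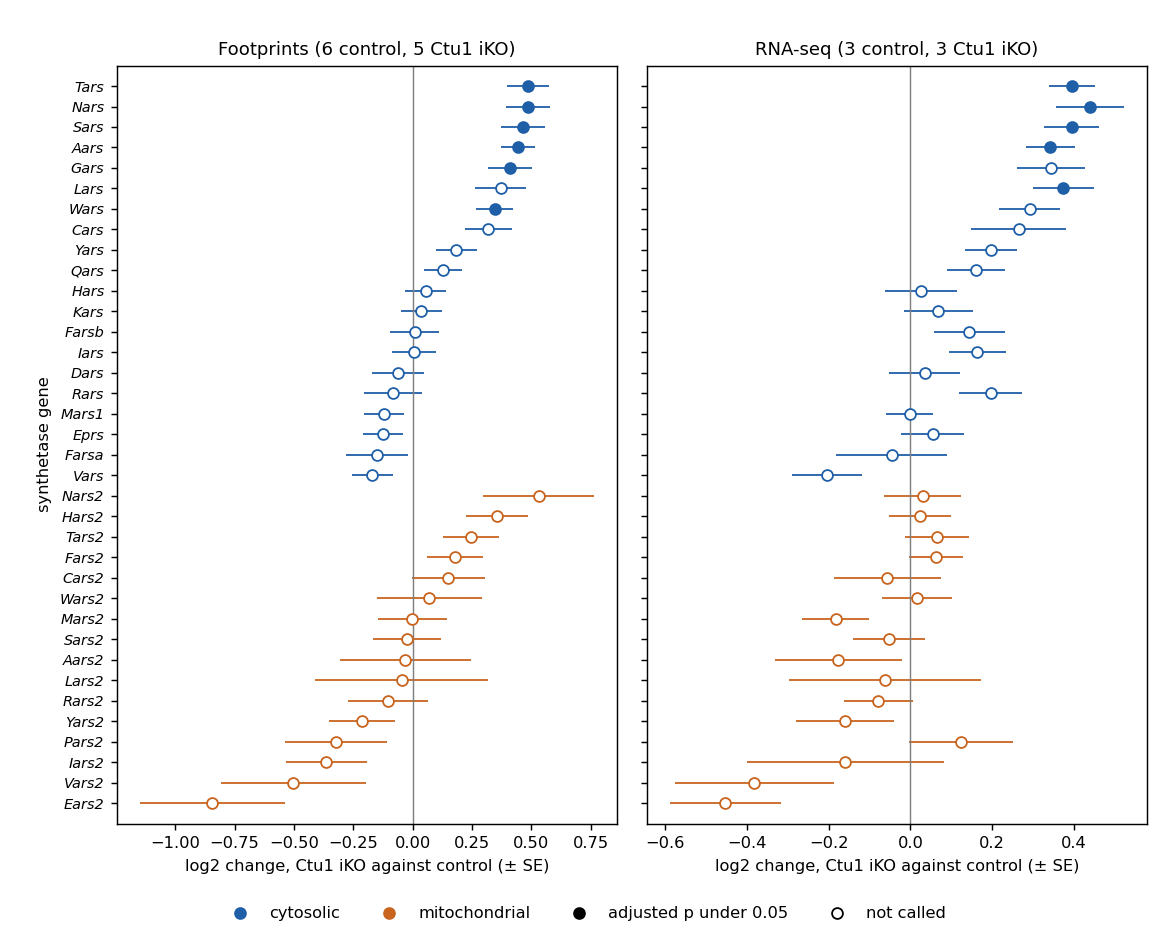
Log2 change of 36 of the 37 synthetases in Ctu1 iKO against control cultures with DMSO, in footprints (left; 6 control and 5 Ctu1 iKO libraries) and RNA-seq (right; 3 each), as a point with its standard error. Filled points passed an adjusted p of 0.05, and all of them are cytosolic (blue) and to the right of zero.

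RNA of 4 of these 6 enzymes rose too, in the same cultures. Among 20 cytosolic genes, 5 rose (Nars, Tars, Sars, Lars and Aars) and none fell, where 5.12% of 10119 genes were called, 3.32% higher and 1.8% lower (336 higher and 182 lower, or 263 and 210 with library totals). Nars RNA was 1241, 1202 and 1057 CPM in the 3 control libraries and 1586, 1635 and 1464 in the 3 Ctu1 iKO libraries, a log2 change of 0.44 ± 0.08 (edgeR adjusted p = 0.0325). Tars RNA was 128, 131 and 133 against 168, 173 and 168 CPM (0.40 ± 0.06, edgeR adjusted p = 0.0174). Sars RNA was 329.8, 304 and 298 against 394, 414 and 403 CPM (0.40 ± 0.07, edgeR adjusted p = 0.0255). In these 3 genes the Ctu1 iKO libraries were all above the control libraries. Lars rose by 0.38 ± 0.08 and Aars by 0.34 ± 0.06 on the log2 scale, while Gars (0.34 ± 0.08, adjusted p = 0.0566) and Wars (0.29 ± 0.07, adjusted p = 0.0623) did not pass in edgeR. The median was 0.18 over cytosolic genes (17 of 20 positive), -0.06 over mitochondrial genes and -0.00 over all genes. The mitochondrial class had 0 calls in edgeR (1 at an unadjusted p under 0.05, and 1, lower, in DESeq2).

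With the replicate number as a block, 2831 of 10119 genes were called (28%; 14.3% higher and 13.6% lower) and 16 synthetases. The 13 that rose were Aars, Cars, Farsb, Gars, Iars, Lars, Nars, Qars, Rars, Sars, Tars, Wars and Yars, and the 3 that fell were Vars (-0.20 ± 0.06) and the mitochondrial Ears2 (-0.45 ± 0.13, edgeR adjusted p = 0.0366) and Vars2 (-0.41 ± 0.09, adjusted p = 0.0122). Ears2 RNA had 3.09, 3.70 and 3.92 CPM in control and 2.64, 2.53 and 2.55 in Ctu1 iKO libraries, without overlap. With all RNA-seq replicates as labelled, 10 synthetases were called, all cytosolic and higher (Aars, Cars, Gars, Iars, Lars, Nars, Qars, Sars, Tars and Wars; 2677 genes in all). Without control replicate 1 or 2 or Ctu1 iKO replicate 1 or 2, no synthetase was called, and without control replicate 3, 1 was (Tars). Adjusted p-values of the 5 genes then reached 0.144.

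Translational efficiency, the footprint change beyond the RNA change, separated no synthetase between the genotypes in DMSO. edgeR called 0 of 37 members and 0 of 10117 genes (0%), with 2 members at an unadjusted p under 0.05 (Tars2 at 0.46 ± 0.15 and Nars2 at 0.86 ± 0.38), and DESeq2 called 0 members. The log2 difference was 0.04 ± 0.15 for Nars, 0.07 ± 0.11 for Tars and 0.02 ± 0.16 for Sars. All 8 complex members were below zero (median -0.09, highest Qars at -0.002), beside 4 of 12 cytosolic genes outside the complex and 50.9% of all genes. With library totals the cytosolic median moved from -0.01 to 0.04. Whether complex members differ from the others was not tested.

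Part of a list of 24 known amino acid response genes of ATF4 rose in the same cultures. In footprints 11 of 24 rose and none fell, where 1.63% of all genes rose, with a median of 0.62, among them Chac1, a glutathione-degrading enzyme (2.48 ± 0.25), Trib3, a pseudokinase (1.20 ± 0.17), Atf4 itself (0.99 ± 0.10) and Asns, the asparagine synthetase (0.71 ± 0.11). In RNA-seq 12 of 24 rose, where 3.32% of all genes did, with a median of 0.52. Leaving out 1 library gave 8 to 11 in footprints. In RNA-seq it gave 6, 0 and 7 without control replicate 1, 2 and 3 and 4, 6 and 11 without Ctu1 iKO replicate 1, 2 and 3. Footprint replicates 1 to 3 alone called 0 of the 24 and replicates 4 to 6 called 1. Of the 5 cytosolic synthetases with a TGATGNAAN match, Aars, Gars and Tars rose in footprints while Iars (0.01 ± 0.09) and Yars (0.18 ± 0.09) did not pass, and Sars rose without a match. The 3 scaffold genes (median -0.17), 17 other genes of mitochondrial translation (-0.01) and 10 tested synthetase-like or tRNA-processing genes (0.04) had 0 calls in footprints. Of 6 cytosolic elongation factors (-0.21), 1 fell, Eef1a1, where 1.04% of all genes fell. Whether the ATF4 list and the synthetases moved for a shared reason was not tested.

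The share of codons read by the tRNAs that Ctu1 modifies varied among the genes that rose. In the median cytosolic synthetase 6.94% of codons were AAA, CAA or GAA, beside 5.26% in the median mitochondrial enzyme and 6.04% over 10327 listed genes with a coding sequence (GENCODE M21). Among the 6 called in footprints, Tars had 9.14%, Gars 7.13%, Nars 6.62%, Sars 6.45%, Aars 4.96% and Wars 3.95%. Eprs, with 10.5%, and the aspartyl enzyme Dars, the highest at 10.8%, had changes of -0.12 ± 0.08 and -0.06 ± 0.11.

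In control cells, torin 1 for 2 h changed few synthetases past the threshold in the fit without a replicate block. With the replicate number as a block, more synthetases and more genes in all were called, as given further below. The torin 1 comparisons share their DMSO libraries with the comparison of genotypes. In footprints, 1 of 20 cytosolic genes, Qars, and 1 of 16 mitochondrial genes, the methionyl enzyme Mars2, fell and none rose, where 7.24% of 9856 genes were called, 2.91% higher and 4.33% lower (287 higher and 427 lower, or 602 and 327 with library totals). Qars (chr9:108507706-108515941, plus strand) had 489 to 567 (median 550.4) footprint CPM with DMSO and 322 to 369.5 (median 342) with torin 1. The groups did not overlap, and the log2 change was -0.64 ± 0.07 (edgeR adjusted p = 1.65e-05), a level 0.64 times that with DMSO. Mars2 (chr1:55237177-55248470, plus strand), a gene of 1 exon, had 9.85 to 15.7 (median 11.4) CPM with DMSO and 3.13 to 7.72 (median 6.54) with torin 1, also without overlap (-0.95 ± 0.20, edgeR adjusted p = 0.00716). These levels rest on 231 to 551 counts per library with DMSO and 41 to 217 with torin 1, and Mars2 was not called in replicates 1 to 3 or 4 to 6 alone.

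The 2 genes differed in RNA. Qars RNA was 314, 316 and 287 CPM with DMSO and 448, 426 and 385 with torin 1, so the RNA rose by 0.45 ± 0.08 (edgeR adjusted p = 0.0124) while its footprints fell. Mars2 RNA went from 16.8, 17.9 and 15.7 to 8.25, 7.62 and 7.38 CPM (-1.12 ± 0.09, edgeR adjusted p = 0.000891), a fall close in size to that of its footprints. The mitochondrial tyrosyl enzyme Yars2 went from 37.1, 42.2 and 36.1 to 29.99, 33.01 and 28.3 CPM (-0.34 ± 0.09, edgeR adjusted p = 0.0458). Of 9617 genes 13.1% were called, 5.69% higher and 7.4% lower (547 and 712, or 445 and 891 with library totals). Yars2 was no longer called without any 1 of the 6 libraries (adjusted p up to 0.177), nor Qars without replicate 2 of either group (up to 0.0577). With all replicates as labelled the same 3 genes were called, and in the 2 control torin 1 libraries that lay on the DMSO side Mars2 stood at 13.6 and 15.0 CPM.

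In translational efficiency, Qars was the one synthetase that passed in edgeR in control cells, at -1.10 ± 0.13 (edgeR adjusted p = 0.00057), where 1.18% of 9616 genes were called and 1.12% were lower. DESeq2 called another member as well. All 8 complex members were below zero (median -0.28), such as Eprs at -0.44 ± 0.12 (edgeR adjusted p = 0.185), beside 6 of 12 cytosolic genes outside the complex and 44.5% of all genes. Mars2 was at 0.06 ± 0.32. With library totals the median over all genes moved by 0.13, and Qars still passed.

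Most cytosolic log2 changes with torin 1 in control footprints were below zero, although Qars alone passed in edgeR, and Qars and Kars in DESeq2. Of 20 changes 19 were negative, with a median of -0.13 beside 0.01 over all genes, of which 47.3% were negative. With library totals 7 of 20 were positive and the medians were -0.05 and 0.10. The mitochondrial median was 0.02. Replicate numbers paired these footprint libraries, and with the number as a block 20.5% of genes were called (9.88% higher and 10.6% lower) and 12 synthetases. The 9 cytosolic genes that fell in that fit were Aars, Eprs, Kars (-0.28 ± 0.04, edgeR adjusted p = 0.000652), Nars, Qars, Rars, Sars, Tars and Vars. Mars2 (-0.97 ± 0.15) and Yars2 (-0.35 ± 0.08) fell and the leucyl enzyme Lars2 (0.40 ± 0.09) rose in the mitochondrial class. In RNA-seq the same block called 43.7% of genes (20.7% higher and 23% lower) and 15 synthetases, with Eprs, Iars, Qars, Vars and the prolyl enzyme Pars2 higher and Aars, Farsa, Hars, Wars, Yars, Aars2, Hars2, Mars2, Vars2 and Yars2 lower.

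**Figure D3:**
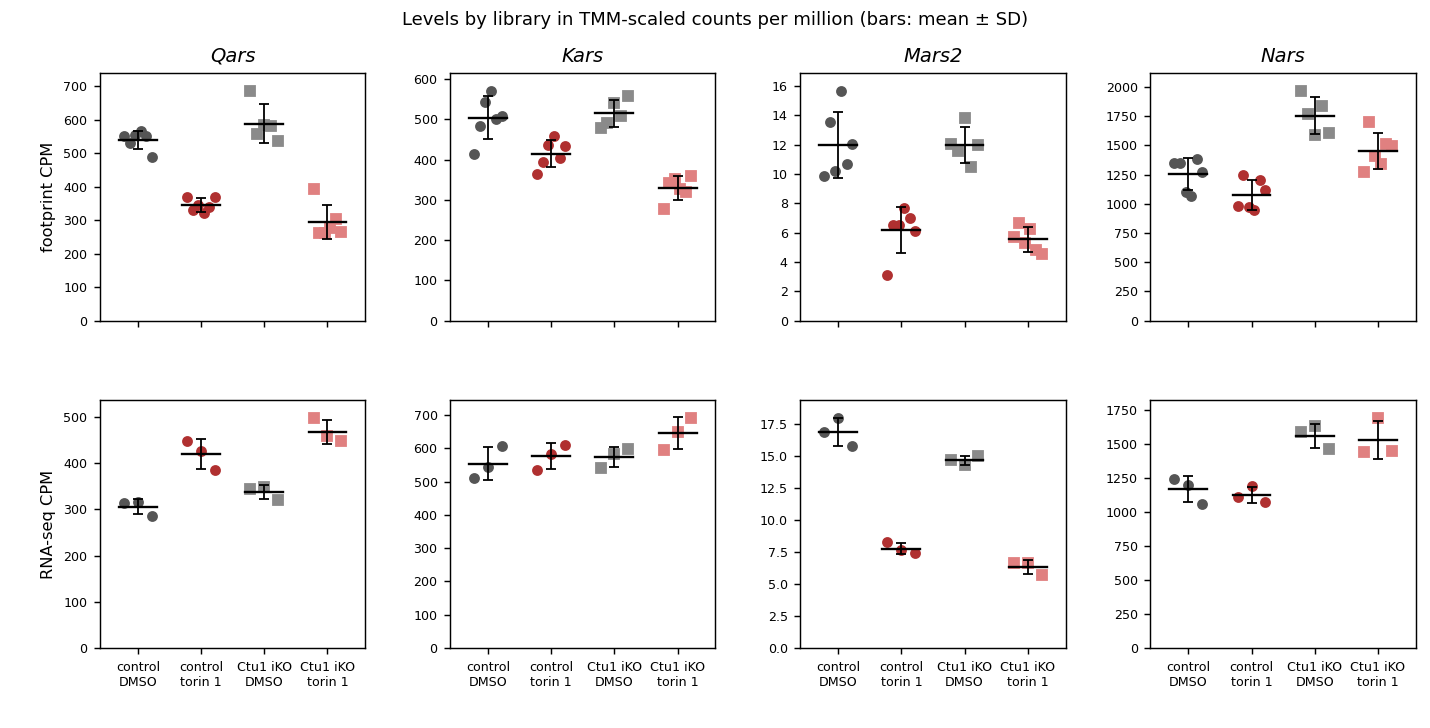
Levels of Qars, Kars, Mars2 and Nars in each library, in TMM-scaled CPM from zero, for footprints (top; 5 or 6 per group) and RNA-seq (bottom; replicates 1 to 3), with mean and SD. Torin 1 groups (red) lie below DMSO groups (grey) for Qars footprints and above them for Qars RNA, and Nars is higher in Ctu1 iKO (squares) than in control (circles) in both assays.

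In Ctu1 iKO cells, torin 1 lowered Qars and Mars2 again. It also lowered Kars, which in control cells passed in DESeq2 and in the blocked fit. Footprints of 3 of 20 cytosolic genes fell (Qars, Kars and Sars), and in the mitochondrial class Mars2 fell and Pars2 rose, where 8% of 9855 genes were called, 3.48% higher and 4.52% lower (343 and 445, or 580 and 317 with library totals). Qars had 685, 556, 584, 582 and 535 CPM with DMSO and 262 to 392 (median 270.3) with torin 1, a log2 change of -1.01 ± 0.12 (edgeR adjusted p = 6.1e-05) and a level 0.496 times that with DMSO. Kars (chr8:111993443-112011323, minus strand) had 478, 492, 539.8, 509 and 559 CPM with DMSO and 277 to 359 (median 334) with torin 1 (-0.65 ± 0.09, edgeR adjusted p = 0.00026). Neither gene had overlapping groups. Sars fell too, with a change of -0.32 ± 0.09 (edgeR adjusted p = 0.0467), and did not pass with library totals.

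In Ctu1 iKO cells Mars2 had 12.03, 11.6, 13.8, 10.5 and 11.99 CPM with DMSO and 4.53 to 6.67 (median 5.50) with torin 1 (-1.12 ± 0.17, edgeR adjusted p = 0.000735), with every torin 1 culture below every DMSO culture. Pars2 had 4.23, 3.64, 3.67, 3.57 and 4.47 CPM with DMSO and 4.23 to 9.71 (median 7.65) with torin 1 (0.90 ± 0.25, edgeR adjusted p = 0.0376), on 20 to 152 counts per library with torin 1, and its groups overlapped. Lars2 had a similar size of change, 0.98 ± 0.37, and did not pass (adjusted p = 0.134). The cytosolic median was -0.20 (18 of 20 negative) and the mitochondrial median 0.05, beside 0.02 over all genes, 47.8% of them negative. With library totals these medians were -0.10, 0.14 and 0.11. Sars was not called without Ctu1 iKO with DMSO replicate 1, 2, 4 or 5 or Ctu1 iKO with torin 1 replicate 3, 4, 5 or 6 (adjusted p up to 0.117). Pars2 was not called without any 1 of the 5 DMSO libraries or torin 1 replicate 2, 3, 4 or 6 (up to 0.0915).

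RNA-seq in Ctu1 iKO again had Qars higher, from 344, 349 and 320.0 to 497, 459 and 447 CPM (0.46 ± 0.08, edgeR adjusted p = 0.0195). Vars RNA rose from 343, 347 and 346 to 425, 459 and 439 CPM (0.34 ± 0.07, adjusted p = 0.0348), and Mars2 fell from 14.6, 14.3 and 15.00 to 6.59, 6.61 and 5.70 (-1.23 ± 0.10, adjusted p = 0.0022). None of the 3 had overlapping groups. Kars RNA was 539.7, 584 and 597 CPM with DMSO and 594, 649.7 and 689.7 with torin 1 (0.16 ± 0.09, adjusted p = 0.334). Of 9619 genes 8.25% were called, 3.73% higher and 4.52% lower (359 and 435, or 289 and 650 with library totals, where Vars did not pass). Qars and Vars each lost their call without any 1 of the libraries but Ctu1 iKO with torin 1 replicate 3 (adjusted p up to 0.0868 and 0.147). With all replicates as labelled no gene was called, and Mars2 RNA stood at 5.25 and 5.88 CPM in Ctu1 iKO with DMSO replicates 4 and 5 and at 8.79 and 11.03 in Ctu1 iKO with torin 1 replicates 5 and 6. With the replicate number as a block 35.1% of genes (17.1% higher and 18.1% lower) and 8 synthetases were called, Iars, Qars and Vars higher and Aars, Wars, Yars, Mars2 and Yars2 lower.

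In translational efficiency, torin 1 lowered Qars (-1.47 ± 0.22, edgeR adjusted p = 0.00215) and Kars (-0.81 ± 0.16, adjusted p = 0.023) in Ctu1 iKO, where 1.77% of 9615 genes were called and 1.67% were lower. Kars was not called with library totals, a setting that moved the all-gene median by 0.17 and the cytosolic median from -0.16 to 0.00. It was not called either without Ctu1 iKO with DMSO replicate 1, 2 or 3 or with torin 1 replicate 2 (adjusted p up to 0.167).

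**Figure D4:**
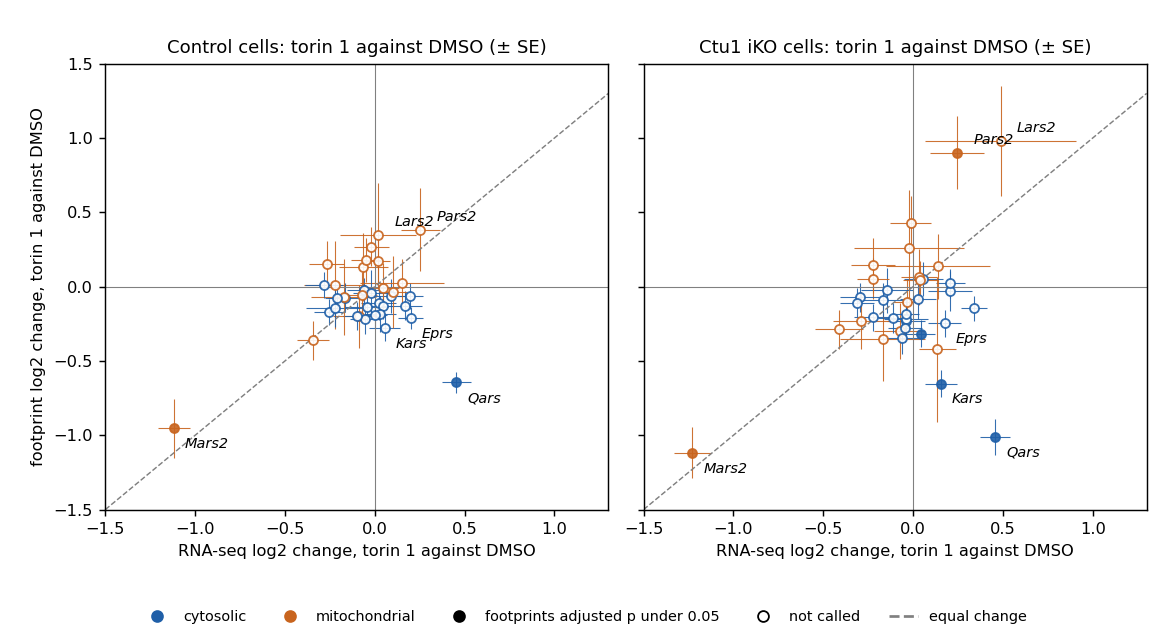
Log2 change with torin 1 in RNA-seq (x axis) and footprints (y axis) for 36 synthetases, in control (left) and Ctu1 iKO cells (right), with standard errors; filled points passed in footprints and the dashed line marks equal change. Mars2 lies near the line at lower left in both panels, and Qars lies at positive RNA and negative footprint change.

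Among the genes around the synthetases, the 3 scaffold genes of the complex all fell with torin 1 in footprints of Ctu1 iKO, Eef1e1 by 0.72 ± 0.18, Aimp1 by 0.52 ± 0.10 and Aimp2 by 0.39 ± 0.11 on the log2 scale, and in control cells only Aimp2 passed (-0.28 ± 0.08); the difference between genotypes was not called for any of them. Cytosolic elongation factors, among them Eef1a1, which delivers charged tRNAs to the ribosome, and Eef2, which moves the ribosome along the mRNA, fell in 4 of 6 cases in control cells (median -1.19) and 5 of 6 in Ctu1 iKO (-1.88), while RNA of Eef2 and Eef1a1 rose in both. For 3 of the 6 (Eef1a1, Eef2 and Eef1b2) the footprint difference between genotypes was called, lower in Ctu1 iKO, where 0.639% of all genes were called. The median difference over the 6 was -0.58. The 14 other mitochondrial translation genes and 9 synthetase-like or tRNA-processing genes had 0 footprint calls in either genotype. Of 21 ATF4 genes, 5 fell in control and 6 in Ctu1 iKO, where 4.33% and 4.52% of all genes fell, Trib3, Mthfd2, Atf4 and Phgdh in each.

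Whether torin 1 acted differently on the synthetases in Ctu1 iKO was tested as the difference of the 2 effects. In footprints 0 of 36 members were called by edgeR (2 at an unadjusted p under 0.05, and 0 by DESeq2), where 0.639% of 9857 genes were called. The 2 were Kars at -0.37 ± 0.12 (edgeR adjusted p = 0.381) and Qars at -0.36 ± 0.13 (adjusted p = 0.574). With the replicate number as a block, Kars alone was called among the members. That fit includes the Ctu1 iKO libraries with DMSO, which the numbers do not pair. In RNA-seq 0 of 36 members and 0 of 9616 genes were called (0%), with 0 members at an unadjusted p under 0.05 and 0 called by DESeq2.

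With torin 1 present in both genotypes, Ctu1 iKO cultures had higher footprint counts for 3 cytosolic synthetases and had fewer for Kars. Nars, Aars and Sars rose, Kars fell, and 0 of 16 mitochondrial genes were called (0 at an unadjusted p under 0.05, and 0 by DESeq2), where 4.83% of 9913 genes were called, 2.23% higher and 2.6% lower (221 and 258, or 281 and 202 with library totals). Nars had 950.2 to 1248 (median 1049.6) CPM in control and 1268 to 1700.3 (median 1451) in Ctu1 iKO cultures (0.43 ± 0.10, edgeR adjusted p = 0.0269). Aars had 122 to 174 (median 149) and 169 to 216 (median 205) CPM (0.41 ± 0.10, adjusted p = 0.0313), and Sars 266 to 305 (median 284) and 327 to 419 (median 350.2) (0.34 ± 0.09, adjusted p = 0.0333). Groups did not overlap for Nars or Sars and did overlap for Aars. Kars had 364 to 459 (median 418) CPM in control and 277 to 359 (median 334) in Ctu1 iKO, without overlap (-0.33 ± 0.09, adjusted p = 0.0463), and did not pass with library totals. Lars, at 0.47 ± 0.16, did not pass (adjusted p = 0.126). The cytosolic median was 0.07, the mitochondrial 0.03 and that of all genes 0.01.

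This comparison shares its libraries with the torin 1 comparison of each genotype and none with that of the genotypes in DMSO. Replicate numbers paired these libraries, and as a block they gave 14.4% of genes called (7.02% higher and 7.35% lower) and 11 synthetases, with Aars, Cars, Lars, Nars, Sars, Tars, Wars and Lars2 higher and Kars (-0.34 ± 0.06), Qars (-0.25 ± 0.07) and Vars (-0.18 ± 0.05) lower. In RNA-seq edgeR called 0 of 36 members (8 at an unadjusted p under 0.05, and 5 by DESeq2), where 1.31% of 9650 genes were called, 0.953% higher and 0.352% lower (92 and 34, or 57 and 41 with library totals). For Nars RNA the value was 0.45 ± 0.09 on the log2 scale (adjusted p = 0.0643) and Lars 0.45 ± 0.13 (adjusted p = 0.116). With the block 32.8% of genes (17.3% higher and 15.5% lower) and 16 synthetases were called, 12 cytosolic genes higher and the mitochondrial Iars2, Mars2, Vars2 and Yars2 lower. Without Ctu1 iKO with torin 1 replicate 3, Nars alone was called, and the 5 genes called by DESeq2 were Gars, Lars, Nars, Sars and Tars. In translational efficiency edgeR called 0 of 36 members (1 at an unadjusted p under 0.05, and 0 by DESeq2), where 0.114% of 9644 genes were called. Of the 21 ATF4 genes 8 rose in footprints, with a median of 0.53, and 5 of 6 elongation factors fell, where 2.23% of all genes rose and 2.6% fell. Footprint replicates 1 to 3 alone called 0 of the ATF4 genes and replicates 4 to 6 called 4.

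Averaged over the genes of a class, footprints of the cytosolic synthetases stood highest in Ctu1 iKO with DMSO. The mean log2(CPM + 1) of footprints over 20 cytosolic genes was 7.90 ± 0.0623 in control with DMSO (SD, n = 6), 8.05 ± 0.0762 in Ctu1 iKO with DMSO (n = 5), 7.74 ± 0.109 in control with torin 1 (n = 6) and 7.84 ± 0.0916 in Ctu1 iKO with torin 1 (n = 6). Ranges overlapped between neighbouring groups, from 7.82 to 7.999 and 7.98 to 8.17 for the genotypes with DMSO. Between same-numbered cultures, in the comparisons that the numbers paired, the cytosolic mean was lower with torin 1 in 6 of 6 control pairs and higher in Ctu1 iKO in 6 of 6 torin 1 pairs, while the mitochondrial mean was higher in 3 of 6 and 4 of 6. Over the 16 mitochondrial genes listed in both tables the same means were 4.12 ± 0.154, 4.11 ± 0.108, 4.10 ± 0.166 and 4.10 ± 0.101, less apart in footprints than the spread within any group. In RNA-seq (n = 3 each), cytosolic means were 7.64 ± 0.0199 and 7.63 ± 0.0597 in control with DMSO and torin 1, and 7.80 ± 0.0309 and 7.82 ± 0.0980 in Ctu1 iKO, with no overlap between genotypes. Mitochondrial RNA means were 4.47 ± 0.0487 and 4.36 ± 0.0680 in control with DMSO and torin 1, and 4.38 ± 0.103 and 4.29 ± 0.122 in Ctu1 iKO. Between same-numbered cultures the mitochondrial RNA mean was lower in 3 of 3 pairs in Ctu1 iKO with DMSO, with torin 1 in control and with torin 1 in Ctu1 iKO, and in 2 of 3 pairs in Ctu1 iKO with torin 1 present, although the ranges of the groups overlapped in each comparison. As a share of all footprint counts, the cytosolic genes took 0.698 ± 0.0365% in Ctu1 iKO with DMSO, 0.554 ± 0.0318% in control with torin 1 and 0.623 ± 0.0327% in Ctu1 iKO with torin 1. The class means rest on genes with levels far apart and weigh each gene alike.

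**Figure D5:**
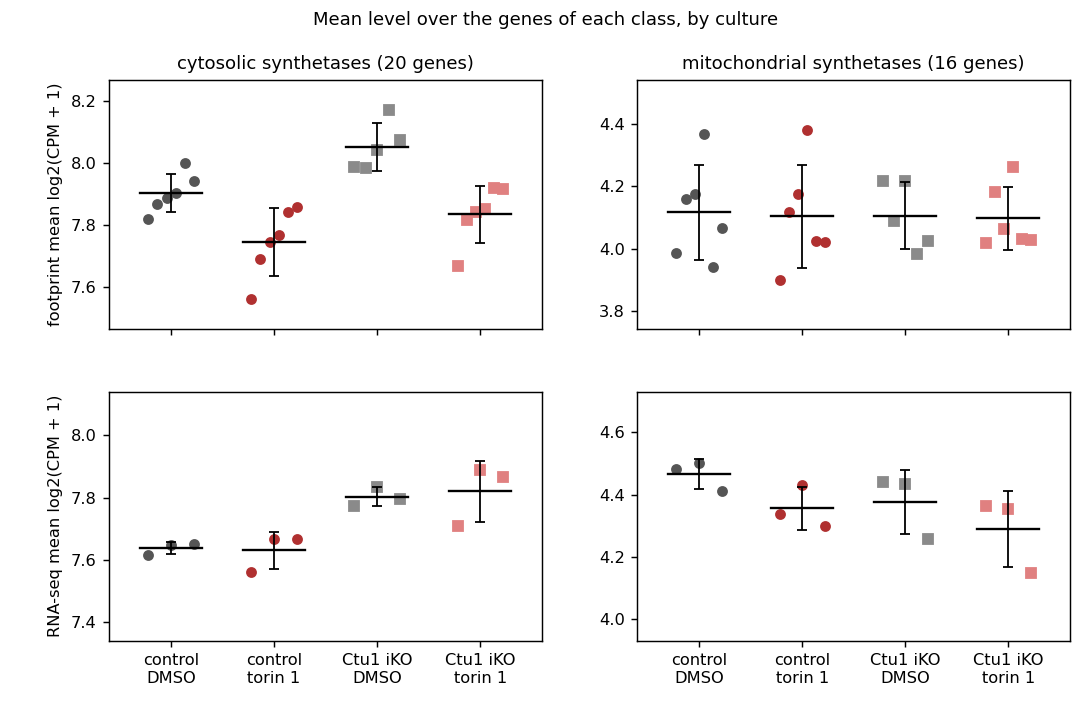
Mean log2(CPM + 1) over 20 cytosolic (left) and 16 mitochondrial synthetases (right) in each culture, for footprints (top) and RNA-seq (bottom), with the group mean and SD; the y axes do not start at zero. Cytosolic means are higher in Ctu1 iKO (squares) in RNA-seq without overlap, and mitochondrial footprint means overlap among all 4 groups.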

How the data were processed

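The deposited values of both assays were raw read counts by gene, which the authors had not normalized. Per the study's methods and processing notes, footprint reads were trimmed with cutadapt 3.4, UMIs were extracted with UMI-tools 1.1.1, and reads were aligned and counted with STAR 2.5.3a (mm10 in the notes, a human build in the methods text); RNA-seq used cutadapt 3.4 and STAR. The strand setting of the counting is not given in the sources used here. No listed footprint entry had a maximum below 100 counts, all RNA-seq counts were even, and 11 symbols on 23 entries were left out. Whether both mates of an RNA-seq pair were counted is not given in the sources used here, and if they were, RNA-seq totals exceed the number of fragments. The errors given are the spread between libraries, which includes counting error.

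Groups and replicate numbers came from the labels. The test was edgeR's quasi-likelihood test (version 4.0.16, TMM, R 4.3.3) on every gene whose mean count reached 10, with Benjamini-Hochberg adjustment over all of them and calls at 0.05. Footprints used every replicate, RNA-seq replicates 1 to 3, and translational efficiency the interaction of assay and group in those replicates. CPM are TMM-scaled. The gene family and the lists were chosen with earlier results of these data known, and which genes belong to the family was set by gene symbol. By rule, up to 3 called members per class with the largest change are given by library. The lists were synthetases of the complex, its scaffold, other mitochondrial translation genes, synthetase-like genes, elongation factors, cell type markers and amino acid response genes of ATF4.

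Same-numbered libraries deviated together in RNA-seq (r = 0.49 to 0.84 over the 4 comparisons) and in footprints for torin 1 against DMSO in control (0.46 to 0.66) and for the genotypes with torin 1 (0.34 to 0.58), so the blocked values are given there. No 2 libraries of a group agreed within sampling noise (chi-square per degree of freedom of at least 21.1). Alternatives were DESeq2 1.42.0, library totals, DESeq2 size factors, other filters, a replicate block, all RNA-seq replicates as labelled, subsets of footprint replicates and leaving out each library. Codons and coordinates are from GENCODE M21 (GRCm38), 116 symbols matched by synonym, and promoter sequence from RefSeq (another match, and 1 member's own values, are not reported here). Tables and figures used Python 3.11.15, numpy 2.4.6, scipy 1.17.1, pandas 2.3.3 and matplotlib 3.10.9.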

Additional observations from a re-analysis of the deposited data

Results flagged for a closer look

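Among 154 groups of 5 or 6 footprint libraries (146 of a synthetase in a condition and 8 of a class mean), 5 held a library far from the others of its group by Dixon's test at 95%, a test that chance passes in about 1 of 20 groups. Mars2 had 3.13 CPM in control with torin 1 replicate 1, where the other 5 libraries had 6.13 to 7.72. Qars had 392 CPM in Ctu1 iKO with torin 1 replicate 1, against 262 to 303 in the others, and stayed below all DMSO libraries. Tars2 had 157 CPM in control with torin 1 replicate 4, against 87.1 to 103 in the others. Vars had 409.9 CPM in Ctu1 iKO with DMSO replicate 2, against 358 to 368. Wars2, the mitochondrial tryptophanyl enzyme, had 0 counts in Ctu1 iKO with torin 1 replicate 1 and 7.65 to 10.99 CPM in the other 5. Ctu1 iKO with torin 1 replicate 1 held 2 of the 5, and the cause was not tested.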

How the results depend on the processing

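Of 191 alternative counts of called synthetases or checks of Ctu1, 143 stayed within 1.5 times the main count or on the same side, and of 439 alternative values for single called genes 323 kept their call, 116 lost it and 0 changed sign. Footprint replicates 1 to 3 called 0, 1, 1 and 0 synthetases for the genotypes with DMSO, torin 1 in control, torin 1 in Ctu1 iKO and the genotypes with torin 1, and replicates 4 to 6, a setting chosen after seeing the data, called 0, 1, 3 and 0 (main 6, 2, 5 and 4). The replicate block called 12 synthetases for torin 1 in control footprints, 11 for the genotypes with torin 1, 1 (Kars) for the difference of torin 1 effects, which includes the Ctu1 iKO libraries with DMSO that the numbers do not pair, and in RNA-seq 16 for the genotypes with DMSO, 15 and 8 for torin 1 in control and Ctu1 iKO, and 16 for the genotypes with torin 1. Replicate numbers did not pair the footprint libraries of the genotypes with DMSO (r = -0.10 to 0.51; 5 of 10 libraries correlated best with their own number) or of torin 1 in Ctu1 iKO (-0.04 to 0.46; 4 of 10). The block there called 364 and 983 genes in place of 277 and 788; Gars lost its call and Vars2 gained one in the first, and Pars2 lost and Tars gained one in the second. DESeq2 called 8, 6, 5 and 5 synthetases in RNA-seq, in the order of the 4 block counts, among 1530, 1963, 1609 and 1092 genes in all, and 2 of 227 in translational efficiency with torin 1 in control. In RNA-seq with all replicates as labelled, 10 were called for the genotypes with DMSO and 0 for torin 1 in Ctu1 iKO, and Ctu1 differed by -0.477 CPM (control higher) in place of 0.00884. With library totals, 1 synthetase was called in translational efficiency with torin 1 in Ctu1 iKO. Leaving out each library gave 4 to 6 calls for the genotypes with DMSO, 3 to 5 for torin 1 in Ctu1 iKO and 0 for the difference of torin 1 effects in footprints; in RNA-seq 0 to 5, 1 to 3, 1 to 3, 0 to 1 and, for the difference, 0 to 0; in translational efficiency 0, 1, 1 to 2 and 0. Control footprints with torin 1 against DMSO and the genotypes with torin 1 have 6 libraries per group and were not refitted in that way. Over all genes, footprint counts of calls moved from 277 to between 2 and 700 for the genotypes with DMSO, from 714 to between 138 and 2019 and from 788 to between 178 and 1161 for torin 1 in control and Ctu1 iKO, from 479 to between 1 and 1425 for the genotypes with torin 1, and from 63 to between 2 and 139 for the difference. Leaving out 1 library gave 144 to 285, 527 to 921 and 50 to 60 footprint calls for the genotypes with DMSO, torin 1 in Ctu1 iKO and the difference, the first below 277 by over 1.5 times without control replicate 2, 3, 4, 5 or 6 or Ctu1 iKO replicate 3 or 5. In RNA-seq the counts over all genes moved from 518 to between 473 and 2831, from 1259 to between 916 and 4206, from 794 to between 0 and 3378 and from 126 to between 0 and 3162 for the same 4 comparisons, and leaving out 1 library gave 0 to 511, 412 to 1233, 123 to 1123 and 1 to 406. In translational efficiency leaving out 1 library gave 0, 63 to 104, 105 to 163 and 0 to 8 in place of 0, 113, 170 and 11. Apart from fewer libraries in the subsets, the cause of these differences was not tested. In footprints the SE of Lars2 with torin 1 in Ctu1 iKO was 0.37, and the part of depth in it was not tested.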
